A study of Mus musculus with 15 samples.

Results

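Whole-lung RNA sequencing of C57BL/6 mice was used to ask which genes, pathways and cell-type markers still differed from the uninjured lung 21 days after intratracheal bleomycin, which breaks DNA and leads to pulmonary scarring. All genes of the raw count table were compared between the 3 libraries of day 21 and the 4 libraries of day 0, 7 of the 15 libraries in the series; 17457 of 33340 genes passed the filter on low counts. The mice were males of 10 to 12 weeks, and those injured received 50 µL at 5 U/kg. The other 8 libraries came from days 7 and 14. Day 0 was labelled as having no treatment, and no vehicle instillation was stated, so the drug and its instillation cannot be told apart. For replicate 4 of day 0 the labels disagreed, the title reading control and the treatment field bleomycin. The title was followed, and the calls of day 21 against day 0 were also counted with that library left out. The study calls the libraries biological replicates, but the labels do not tie them to separate animals, so p-values measure the spread between these libraries.

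Bleomycin injures the alveolar epithelium and endothelium, and the lung answers with inflammation followed by deposition of collagen and other matrix by activated fibroblasts. Alveolar type 2 cells make surfactant and act as progenitors of the thin type 1 cells that carry gas exchange. During repair they pass through a keratin-rich transitional state. Macrophages derived from monocytes gather around fibrotic tissue and supply growth factors and matrix-degrading enzymes.

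Total counts ranged from 15652008 to 18020661 per library. Levels are given in CPM, counts scaled to library size with TMM factors, and values in individual libraries are listed in replicate order, 4 for day 0 and then 3 for day 21. Differences in brackets are log2 fold changes ± SE from the quasi-likelihood test of edgeR, and p-values were adjusted over all genes tested by the Benjamini-Hochberg method. A gene was called higher or lower where its fold change exceeded 1.5 and its adjusted p was under 0.05. Lung markers were present in both groups: the surfactant gene Sftpc stood at 18853, 17840.0, 25068 and 15716 CPM at day 0 and 2209, 4901 and 4009 CPM at day 21, and the club cell gene Scgb1a1 at 24614, 29607, 31256 and 25967 CPM at day 0 and 4804, 3146 and 1306 CPM at day 21. In a whole-tissue sample, fewer cells of a type and less RNA per cell cannot be told apart. Exons of another gene overlap over 10% of the exon length of Tagln, Ackr1, Mest, Ube2c, Fbn1, Spp1, Dbp, Alas2, Selp, Cyp2f2, Tgfb3, Loxl3 and Acaa1b, so their counts are uncertain, and the other named genes with an overlap have a smaller one.

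The day 21 libraries were not alike. Replicate 1 held far more RNA of large-airway and cardiac genes than replicates 2 and 3. Bpifa1, a secreted protein of upper airway epithelium, stood at 1043, 2.79 and 3.82 CPM, and the cardiac myosin heavy chain Myh6 at 321, 0.398 and 0.118 CPM. The summed cardiac list ranged from 7.83 to 219.9 CPM at day 0, so day 0 libraries differed in this respect too. Replicate 2 was the mildest in fibrillar matrix, with Col1a1 at 3297, 1264 and 2878 CPM. Red cell genes summed to between 1300.4 and 4349 CPM at day 0 and between 398 and 703 CPM at day 21.

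At day 21, 3924 genes (22.5% of those tested) were called against day 0, 2167 higher (12.4%) and 1757 lower (10.1%). The median log2 fold change of all genes was 0.02. The count stayed between 3349 and 3822 when any library of either group was left out, and it was 3349 without day 21 replicate 1. With the test set against a fold change of 1.5 rather than against no change (glmTreat), it was 1754. Every day 21 library lay above every day 0 library in 19.4% of all genes tested, and below in 16.1%. The shares above are the background for the gene lists, which hold 680 genes in 60 lists, of which 663 genes were tested. The lists have 694 entries, since some genes are in more than 1 list and count in each. Spp1 is in the activated fibroblast matrix and scar-associated macrophage lists, and Lgals3 in the latter and the transitional epithelium list. Itgb6 is in the TGF-beta and transitional epithelium lists, and Cyp2f2 and Ces1d are in a cell-type list and the drug metabolism list.

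**Figure D1:**
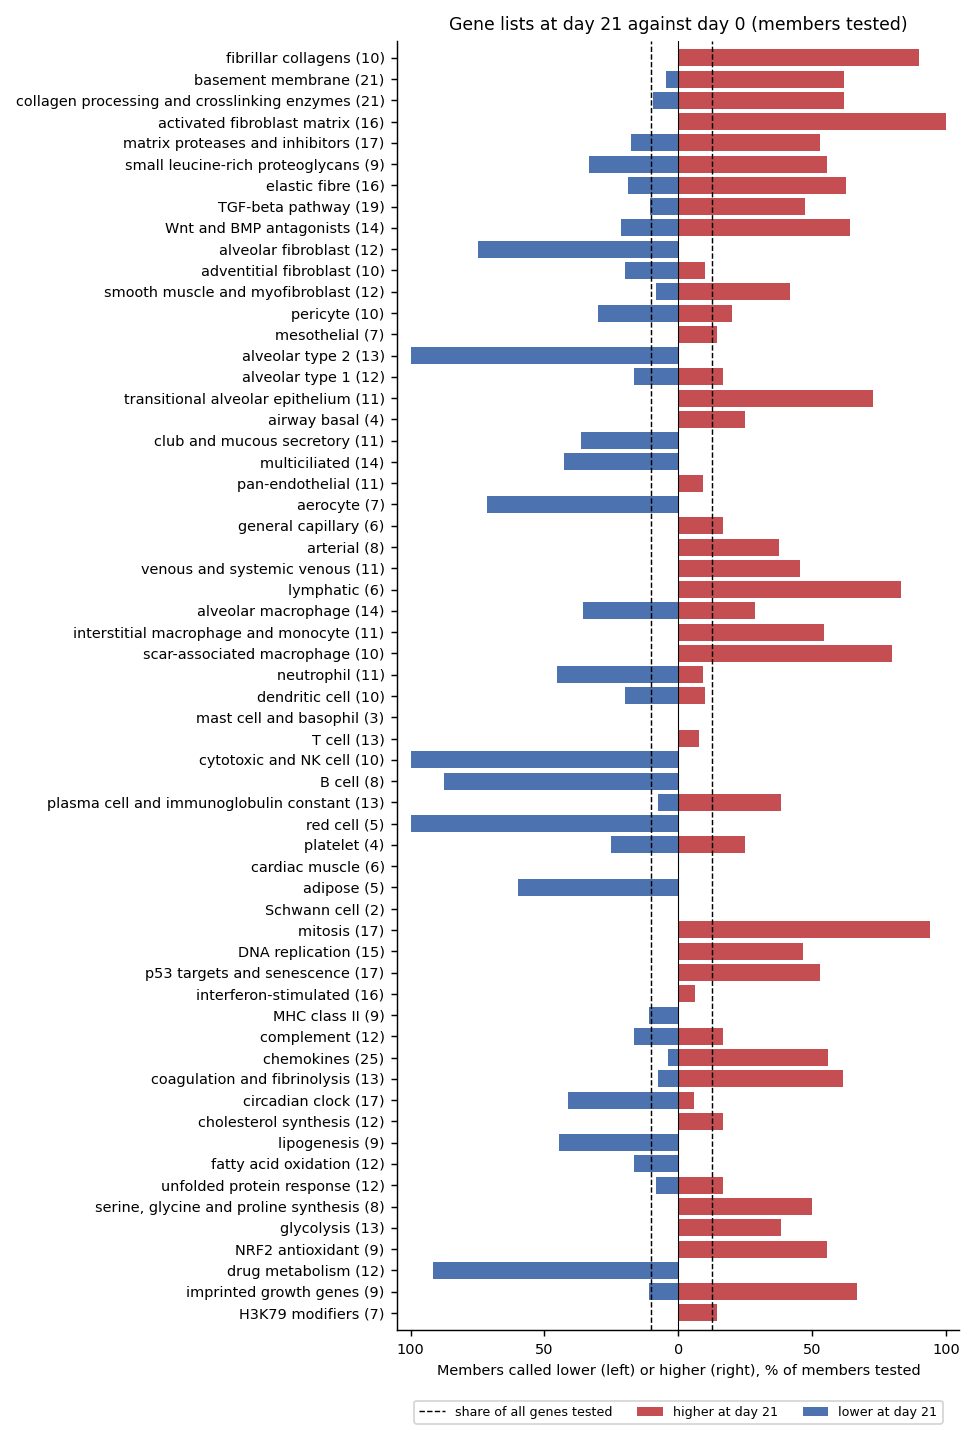
Bars give, for each gene list, the share of its tested members (number in brackets) called higher (right, red) or lower (left, blue) at day 21 against day 0, in percent, and dashed lines give the shares of all genes tested, 12.4% higher and 10.1% lower. All 16 tested members of the activated fibroblast matrix list lie to the right, and all 13 of the alveolar type 2 list lie to the left.

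Among single genes, the steepest rises included secreted antagonists, proteases and a growth factor. Grem1 (ENSMUSG00000074934, chromosome 2, 113746164 to 113758646, GRCm38), an antagonist of bone morphogenetic proteins, was at 0.323, 0.362, 0.317 and 0.502 CPM at day 0 and 112, 13.6 and 106 CPM at day 21. Day 21 replicates 1 and 3 were far above replicate 2, and no day 0 library exceeded 0.502 CPM (log2 fold change 7.64 ± 1.10, adjusted p = 0.000135). Mmp12, the elastase of macrophages, stood at 4.85, 4.11, 4.19 and 4.24 CPM at day 0 and 407, 220.4 and 912 CPM at day 21, so that the lowest day 21 library exceeded the highest of day 0 by a wide margin (log2 fold change 6.88 ± 0.58, adjusted p = 2.54e-06). Cemip, which takes part in breaking down hyaluronan, rose (log2 fold change 7.06 ± 0.87, adjusted p = 4.03e-05). Gpr37, an orphan G protein-coupled receptor, was almost absent at day 0 and reached 24.2, 5.69 and 26.6 CPM (log2 fold change 7.04 ± 1.15, adjusted p = 0.000381). The EGF receptor ligand Ereg rose from at most 0.502 CPM to 41.6, 11.2 and 17 CPM, and the Wnt antagonist Frzb from at most 0.317 CPM to 7.66, 3.76 and 13.5 CPM. Cd177, a surface glycoprotein known from neutrophils, was at 10.6, 10, 4.38 and 8.97 CPM at day 0 and 774, 122 and 576 CPM at day 21 (log2 fold change 5.85 ± 0.70, adjusted p = 3.35e-05), while 5 of 11 genes of the neutrophil list were called lower. Prss22, a serine protease, was highest in replicate 1, at 18.5, 2.45 and 3.29 CPM.

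The steepest falls included a repressor, lipid-handling proteins and a schlafen gene. Hes2, a transcriptional repressor of the Hes family, stood at 5.95, 6.28, 5.71 and 5.57 CPM at day 0 and 0.0617, 0.114 and 0.176 CPM at day 21 (log2 fold change -5.55 ± 0.46, adjusted p = 2.54e-06). Cidec, a protein of lipid droplets, was at 18.2, 18.2, 17.1 and 19.3 CPM at day 0 and 0.617, 0.512 and 1.82 CPM at day 21 (log2 fold change -4.2 ± 0.51, adjusted p = 3.8e-05). The steepest rises and falls were picked among called genes whose groups did not overlap, so that separation was fixed by the choice. Fabp1, a fatty acid carrier, fell from between 6.47 and 10.3 CPM to at most 0.294 CPM. Colq, the collagen tail of acetylcholinesterase, fell (log2 fold change -4.43 ± 0.57, adjusted p = 5.94e-05), and Slfn4, a schlafen gene of myeloid cells, did so too (log2 fold change -4.37 ± 0.60, adjusted p = 9.43e-05). Tex11, Tmem121b and Cst8 lay between 2.9 and 7.86 CPM at day 0 and at no more than 0.588 CPM in any day 21 library. Cyp2e1, a cytochrome P450, stood at 5.37, 15.1, 13.7 and 18.1 CPM at day 0 and 1.11, 0.569 and 0.235 CPM at day 21 (log2 fold change -4.35 ± 0.80, adjusted p = 0.000929). Adipose markers moved with it: 3 of 5 tested adipose genes were called lower (median log2 fold change -2.79), and the adipose list, with Adipoq among its defining genes, summed to between 1.81 and 53.2 CPM in the day 0 libraries and to between 0.455 and 2.59 CPM at day 21. The adipose count ranged from 1 to 4 when 1 library was left out, with 1 without day 21 replicate 2 or 3, and was 0 with limma voom and 5 in the fit of the 2 groups alone. The part of adipose tissue in the fall of Cyp2e1 was not tested.

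Extracellular matrix genes were still raised at day 21. Of 10 tested fibrillar collagen genes, 9 were called higher and none lower (median log2 fold change 3.03). Col5a2, which regulates the width of collagen fibrils, was at 95.1, 109, 81.7 and 95 CPM at day 0 and 955, 611 and 825 CPM at day 21 (log2 fold change 3.06 ± 0.31, adjusted p = 8.25e-06). Col24a1, a minor fibrillar collagen, stood at 0, 0.242, 0.507 and 0.279 CPM at day 0 and 7.1, 3.93 and 10.2 CPM at day 21 (log2 fold change 4.74 ± 0.60, adjusted p = 5.32e-05). Col11a1, best known from cartilage, was at 0.0647, 0.242, 0.0634 and 0.446 CPM at day 0 and 22.4, 4.04 and 9.4 CPM at day 21 (log2 fold change 5.77 ± 1.15, adjusted p = 0.00156). In each of these 3 genes all day 21 libraries lay above all day 0 libraries. Col11a2 was the tested member that was not called (log2 fold change -0.27 ± 0.29, adjusted p = 0.521). Col2a1, the cartilage collagen, was under the filter.

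Enzymes that modify and crosslink collagen moved in both directions. Of 21 tested genes, 13 were called higher and 2 lower (median 1.15). The lysyl oxidase Lox, which crosslinks collagen and elastin, stood at 179, 205, 148 and 152 CPM at day 0 and 888, 901 and 813 CPM at day 21 with no overlap between the groups (log2 fold change 2.34 ± 0.34, adjusted p = 0.000161). The related Loxl2, Loxl3 and Loxl4 were called higher (log2 fold changes 2.45 ± 0.38, 2.1 ± 0.27 and 2.42 ± 0.35). Among the collagen prolyl hydroxylases, P4ha3 rose from at most 2.42 CPM to 31.6, 27.3 and 34.4 CPM, while P4ha1 was at 193, 223, 124 and 130.2 CPM at day 0 and 56.2, 74.8 and 111 CPM at day 21 (log2 fold change -1.05 ± 0.30, adjusted p = 0.0155). The call for P4ha1 was lost without day 21 replicate 1 (-0.88, adjusted p = 0.0611). Pcolce2, an enhancer of procollagen processing, fell to 29.6, 64 and 58.4 CPM from between 287 and 337 CPM (log2 fold change -2.59 ± 0.34, adjusted p = 7.21e-05). Plod2 (log2 fold change 0.28 ± 0.12, adjusted p = 0.0982) and the collagen chaperone Serpinh1 (log2 fold change 0.69 ± 0.26, adjusted p = 0.0613) were not called.

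All 16 genes of the activated fibroblast matrix list were called higher (median 3.37), and 13 were without day 21 replicate 1. Tenascin C (Tnc), a matrix protein of wounds, stood at 6.47, 12.1, 8.43 and 12.3 CPM at day 0 and 571, 171 and 390.1 CPM at day 21 (log2 fold change 5.26 ± 0.51, adjusted p = 7.23e-06). Cthrc1, a marker of collagen-producing fibroblasts in scarred lung, was at 4.2, 3.08, 2.98 and 2.45 CPM at day 0 and 39.6, 8.31 and 34.4 CPM at day 21, with replicate 2 the lowest of day 21 but above day 0 (log2 fold change 3.11 ± 0.61, adjusted p = 0.00145). Neither gene overlapped between the groups. Ccn4, a matricellular protein, rose from at most 4.63 CPM to 65.5, 40.8 and 67.2 CPM. Periostin (Postn) was already plentiful at day 0, with 212, 173, 204 and 164 CPM at day 0 and 499.6, 287 and 371 CPM at day 21 (log2 fold change 1.03 ± 0.26, adjusted p = 0.00786), and its call was lost without day 21 replicate 1 (0.77, adjusted p = 0.0617).

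**Figure D2:**
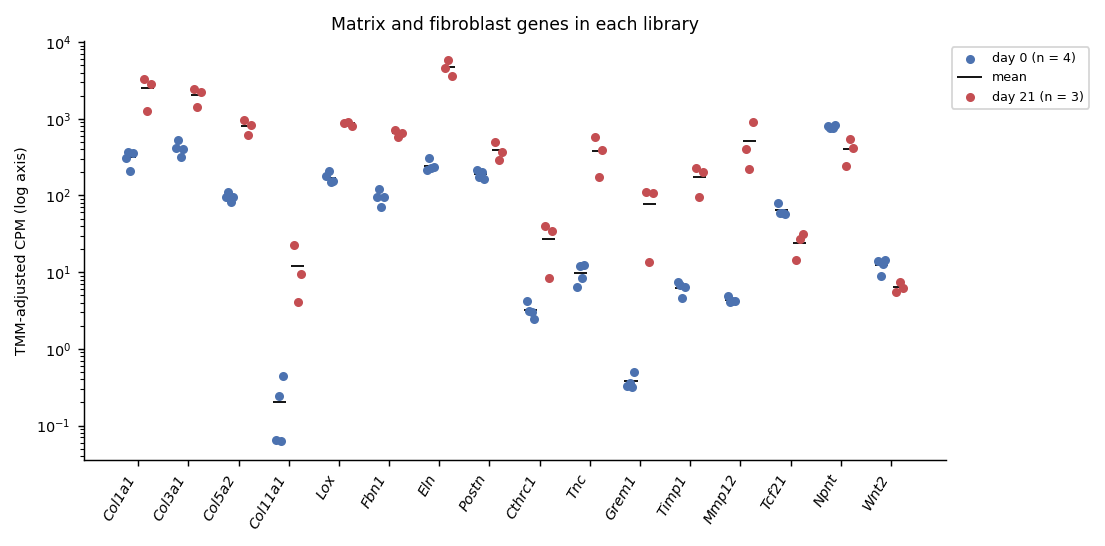
Points are TMM-adjusted CPM on a log axis for each library of day 0 (blue, n = 4) and day 21 (red, n = 3), with black lines at the group means. Tnc, Grem1 and Mmp12 are far apart between groups, Postn is not, and Tcf21, Npnt and Wnt2 on the right are lower at day 21.

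Elastic fibre genes gave 10 higher and 3 lower calls among 16 tested (median 0.87). Elastin (Eln) stood at 212, 309, 226 and 233 CPM at day 0 and 4553, 5867 and 3572 CPM at day 21 (log2 fold change 4.25 ± 0.31, adjusted p = 9.43e-07). Fibrillin 1 (Fbn1) was at 94.5, 119.6, 70.6 and 94.7 CPM at day 0 and 706, 581 and 649.8 CPM at day 21 (log2 fold change 2.77 ± 0.30, adjusted p = 1.28e-05). Both were clear of day 0 in every library. Ltbp2 rose (log2 fold change 2.96 ± 0.20, adjusted p = 6.69e-07) while Ltbp4, which binds latent TGF-beta and guides elastin assembly, fell from between 936 and 1022 CPM to 455, 477 and 434 CPM (log2 fold change -1.11 ± 0.14, adjusted p = 5.63e-05). Among the fibulins, Fbln2 was higher (log2 fold change 2.87 ± 0.55, adjusted p = 0.00121) and Fbln1 lower (log2 fold change -1.44 ± 0.27, adjusted p = 0.00105).

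Of 21 tested basement membrane genes, 13 were called higher and 1 lower (median 0.85), and the lower call, Col4a6 (log2 fold change -0.6 ± 0.21), was lost on leaving out day 0 replicate 2 or 4 or day 21 replicate 1 or 3. The type IV collagen chain Col4a1 stood at 937, 1007, 765 and 893 CPM at day 0 and 2859, 3286 and 2751 CPM at day 21 (log2 fold change 1.72 ± 0.17, adjusted p = 6.9e-06). The laminin chain Lama1, scarce at day 0, was at 2.85, 2.66, 1.08 and 2.01 CPM at day 0 and 29.7, 29.1 and 49.8 CPM at day 21 (log2 fold change 4.07 ± 0.38, adjusted p = 4.84e-06). Both lay above day 0 in all 3 libraries. Among 9 small leucine-rich proteoglycans, 5 were called higher and 3 lower (median 1.03), with 3 higher and 3 lower without day 21 replicate 1 (median 0.45). Fibromodulin (Fmod) stood at 11.5, 11.5, 12 and 9.25 CPM at day 0 and 96, 59.5 and 95.4 CPM at day 21 (log2 fold change 2.92 ± 0.33, adjusted p = 1.82e-05), whereas osteoglycin (Ogn) fell from at least 315 CPM to 77.1, 116 and 104 CPM (log2 fold change -1.9 ± 0.27, adjusted p = 0.000112) and Prelp did too (log2 fold change -1.28 ± 0.29, adjusted p = 0.0041).

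Matrix proteases and their inhibitors gave 9 higher and 3 lower calls among 17 tested (median 1.04), and 7 higher and 3 lower without day 21 replicate 1 (median 0.64). Timp1, an inhibitor of metalloproteinases, was at 7.44, 6.71, 4.57 and 6.35 CPM at day 0 and 225, 96.5 and 202 CPM at day 21 (log2 fold change 4.8 ± 0.51, adjusted p = 1.24e-05). Mmp14, a membrane-bound collagenase, stood at 72.6, 71.3, 38.5 and 53.6 CPM at day 0 and 515, 332 and 413 CPM at day 21 (log2 fold change 2.83 ± 0.29, adjusted p = 9.77e-06). Neither overlapped between the groups. Mmp13 rose (log2 fold change 4.31 ± 0.42, adjusted p = 7.85e-06). Mmp10 had no count in any day 0 library and stood at 4.75, 1.14 and 2.88 CPM at day 21, at least 15.96-fold higher against a floor of 3 counts per library, and the list median is the same with Mmp10 set at that bound. Mmp9, the gelatinase of neutrophils, fell (log2 fold change -2.17 ± 0.37, adjusted p = 0.000502), and Mmp15 did too (log2 fold change -2.06 ± 0.32, adjusted p = 0.000283).

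Genes of the TGF-beta pathway, the main fibrogenic signal of the lung, were raised in part. Of 19 tested, 9 were called higher and 2 lower (median 0.48), and 9 were called higher whichever library was left out, with 1 lower without day 21 replicate 1 and 3 lower without day 0 replicate 2. The ligands Tgfb2 (log2 fold change 1.09 ± 0.18, adjusted p = 0.000406) and Tgfb3 (log2 fold change 0.95 ± 0.16, adjusted p = 0.000538) rose, while Tgfb1 was at 108, 93.6, 106 and 99.3 CPM at day 0 and 142, 110.1 and 144 CPM at day 21 and missed the threshold (log2 fold change 0.37 ± 0.15, adjusted p = 0.0683). Itgb6, a subunit of the integrin that activates latent TGF-beta on epithelium, stood at 52.6, 38.5, 19.5 and 30 CPM at day 0 and 55, 98.2 and 110.2 CPM at day 21 (log2 fold change 1.32 ± 0.29, adjusted p = 0.00357). The groups did not overlap, though the gap was narrow. The co-receptor Tgfbr3 fell (log2 fold change -0.85 ± 0.20, adjusted p = 0.00522). The Smad-binding letters CAGACA, on either strand, were in the RefSeq promoter windows (250 bases before to 50 after the start) of 3 of 8 matched fibrillar collagens and 5 of 9 matched activated fibroblast matrix genes, against 23.6% of 27025 genes.

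Secreted antagonists of Wnt and BMP signals gave 9 higher and 3 lower calls among 14 tested (median 1.82). Follistatin (Fst), which traps activins, stood at 4.07, 4.95, 4.25 and 2.62 CPM at day 0 and 160.0, 70.8 and 76.6 CPM at day 21 (log2 fold change 4.69 ± 0.59, adjusted p = 5.03e-05). The Wnt antagonist Sfrp1 was at 24.1, 37.5, 13.6 and 21.2 CPM at day 0 and 243, 169 and 307 CPM at day 21 (log2 fold change 3.32 ± 0.42, adjusted p = 5.38e-05). Both were above day 0 in every library. Noggin (Nog) rose (log2 fold change 3.17 ± 0.54, adjusted p = 0.000493). Wif1 fell, from between 5.43 and 7.19 CPM to 1.67, 1.48 and 1.41 CPM.

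Markers of resident alveolar fibroblasts, which support the gas-exchange wall, were lower. Of 12 tested, 9 were called lower and none higher (median -1.45). The transcription factor Tcf21 stood at 79.6, 58.7, 58.8 and 57.7 CPM at day 0 and 14.3, 26.9 and 31.5 CPM at day 21 (log2 fold change -1.39 ± 0.28, adjusted p = 0.00161). The methyltransferase Inmt was at 1902, 1317, 2416 and 2099 CPM at day 0 and 132, 291 and 136 CPM at day 21 (log2 fold change -3.37 ± 0.41, adjusted p = 3.48e-05). Both were below day 0 in every day 21 library. Itga8 fell (log2 fold change -1.6 ± 0.29, adjusted p = 0.000737), as did Wnt2 (log2 fold change -0.97 ± 0.21, adjusted p = 0.00252) and the matrix protein Npnt (log2 fold change -0.99 ± 0.22, adjusted p = 0.00373). Limch1 was not called (log2 fold change -0.2 ± 0.19, adjusted p = 0.466).

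Other mesenchymal lists were less uniform. Adventitial fibroblast genes gave 1 higher call, Cd248 (log2 fold change 2.11 ± 0.38, adjusted p = 0.000812), and 2 lower calls, Pi16 (log2 fold change -1.42 ± 0.30, adjusted p = 0.00238) and Clec3b (log2 fold change -1.29 ± 0.28, adjusted p = 0.0027), among 10 tested (median -0.49). Smooth muscle and myofibroblast genes gave 5 higher calls and 1 lower among 12 (median 0.64). Their number of higher calls ranged from 1 to 4 when 1 library was left out, with 1 without day 0 replicate 1, 2 without day 0 replicate 3 or day 21 replicate 1 (median 0.33) or 3, and 3 without day 0 replicate 2 or 4. The lower call was lost without day 0 replicate 4 or day 21 replicate 3. Smooth muscle actin (Acta2) was higher, at 501, 157 and 427 CPM against at most 129 CPM at day 0 (log2 fold change 1.74 ± 0.33, adjusted p = 0.00115), with replicate 2 the lowest of day 21. Desmin (Des) stood at 71.2, 83.7, 92.7 and 99.7 CPM at day 0 and 238, 98.7 and 184 CPM at day 21, with replicate 2 inside the day 0 range, while Cnn1 (log2 fold change -0.5 ± 0.43, adjusted p = 0.415) and Myh11 (log2 fold change 0.47 ± 0.24, adjusted p = 0.161) were not called. Tagln was counted at no more than 1.82 CPM in these 7 libraries, and 67.9% of its exon length overlaps another gene, so its count is uncertain. Pericyte genes gave 2 higher and 3 lower calls among 10 (median -0.13), with Cspg4 (log2 fold change 1.79 ± 0.32, adjusted p = 0.000676) and Pdgfrb (log2 fold change 1.15 ± 0.17, adjusted p = 0.000186) higher; no lower call was left without day 0 replicate 1 or day 21 replicate 1, and 1 was left without day 0 replicate 3 or day 21 replicate 3. Of 7 mesothelial genes, only mesothelin (Msln) was called, at 114, 100.5, 77.7 and 68.6 CPM at day 0 and 377, 525 and 284 CPM at day 21 (log2 fold change 2.13 ± 0.42, adjusted p = 0.0016), and the list median was 0.23. Of 2 Schwann cell genes tested, none was called (median -0.79).

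Alveolar type 2 markers were lower throughout. All 13 were called lower (median -1.76), and every day 21 library lay below every day 0 library for 12 of them, against 16.1% of all genes. Lamp3, a membrane protein of lamellar bodies, was at 766, 771, 688 and 633 CPM at day 0 and 54, 279 and 228 CPM at day 21 (log2 fold change -1.93 ± 0.47, adjusted p = 0.00636). Etv5, a transcription factor that maintains type 2 cells, stood at 245, 244, 225 and 210.4 CPM at day 0 and 40, 85.4 and 79.2 CPM at day 21 (log2 fold change -1.76 ± 0.29, adjusted p = 0.000386). The phosphate transporter Slc34a2 was at 2806, 2935, 2532 and 2381 CPM at day 0 and 328, 963 and 662 CPM at day 21 (log2 fold change -2.03 ± 0.36, adjusted p = 0.000649). Day 21 replicate 1 was the lowest library for each of these 3 genes. Without it, or without day 0 replicate 4, 11 of the 13 were called. The call for the surfactant lipid transporter Abca3 (log2 fold change -0.86 ± 0.28, adjusted p = 0.0315) was lost on leaving out day 21 replicate 1 (-0.65, adjusted p = 0.115), day 21 replicate 3 or any of day 0 replicates 1, 2 and 4. Hc, the gene of complement component 5, fell (log2 fold change -3.02 ± 0.71, adjusted p = 0.00504), and Lyz1 did too (log2 fold change -3.09 ± 0.60, adjusted p = 0.00132).

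Type 1 markers did not move together: 2 were called higher and 2 lower among 12 tested (median 0.01). The higher calls were 1 without day 0 replicate 3 or 4 or day 21 replicate 2 or 3, and 3 without day 0 replicate 1 or day 21 replicate 1 (median 0.27), while the lower calls were 1 without day 21 replicate 1 or 3. Ager stood at 2989, 2123, 2088 and 1992 CPM at day 0 and 1041, 2657 and 2019 CPM at day 21 (log2 fold change -0.27 ± 0.26, adjusted p = 0.476), and Rtkn2 fell (log2 fold change -1.51 ± 0.49, adjusted p = 0.0282), a call lost without day 0 replicate 1, when no lower call was left. Podoplanin (Pdpn) rose (log2 fold change 0.82 ± 0.19, adjusted p = 0.0041). In the transitional epithelium list, 8 of 11 were called higher and none lower (median 0.76), and 6 were without day 21 replicate 1. The tight junction gene Cldn4 was at 5.95, 5.8, 5.33 and 3.96 CPM at day 0 and 111, 66.8 and 65.1 CPM at day 21 (log2 fold change 3.94 ± 0.43, adjusted p = 1.48e-05). Sfn, a 14-3-3 protein induced by p53, stood at 19.3, 26.2, 19.7 and 15.5 CPM at day 0 and 128, 64.9 and 74.4 CPM at day 21 (log2 fold change 2.14 ± 0.29, adjusted p = 9.33e-05). Neither overlapped between the groups. Krt8, the keratin that names the transitional state, was at 245, 256, 183 and 190.5 CPM at day 0 and 395, 303 and 291 CPM at day 21 and missed the adjusted threshold (log2 fold change 0.59 ± 0.22, adjusted p = 0.0518).

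Airway epithelium depended on the library. Of 11 club and mucous genes, 4 were called lower and none higher (median -0.37), and 8 were called lower without day 21 replicate 1 (median -3.43). Scgb1a1 fell (log2 fold change -3.17 ± 0.40, adjusted p = 4.78e-05), as did Cyp2f2 at 2065, 2236, 1790.0 and 1789 CPM at day 0 and 299.8, 197 and 78 CPM at day 21 (log2 fold change -3.36 ± 0.36, adjusted p = 1.28e-05). Aldh1a7 stood at 188, 208, 152 and 142 CPM at day 0 and 36.4, 28.1 and 28.3 CPM at day 21 (log2 fold change -2.48 ± 0.19, adjusted p = 1.4e-06). The mucous gene Scgb3a1 was at 3.36, 31.7, 60 and 92.2 CPM at day 0 and 790.2, 17.2 and 2.94 CPM at day 21. Muc5b, a gel-forming mucin, was at 19.5, 66, 40 and 60.9 CPM at day 0 and 106, 1.65 and 0.999 CPM at day 21. For both, day 21 replicate 1 lay above all other libraries and replicates 2 and 3 within or below the day 0 range. Of 14 multiciliated genes, 6 were called lower (median -0.88), and 12 were without day 21 replicate 1 (median -1.44). Tppp3 stood at 384, 386, 312 and 257 CPM at day 0 and 152, 59.9 and 63.1 CPM at day 21 (log2 fold change -1.87 ± 0.30, adjusted p = 0.000365). Foxj1, the master regulator of motile cilia, was at 90, 104, 74.5 and 106 CPM at day 0 and 103, 43.8 and 52.8 CPM at day 21 (log2 fold change -0.49 ± 0.33, adjusted p = 0.28). Foxj1 was called without day 21 replicate 1 (-0.99, adjusted p = 0.0455). Of 4 tested basal cell genes, 1 was called higher (median 1.69), namely Trp63 (log2 fold change 2.01 ± 0.48, adjusted p = 0.00509). Without day 21 replicate 1 Trp63 gave 1.21 with adjusted p = 0.0665, and the list gave 1 lower call instead, while it gave 2 higher calls without day 0 replicate 2. Krt5 had counts in day 21 replicate 1 alone, at 8.77 CPM.

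**Figure D3:**
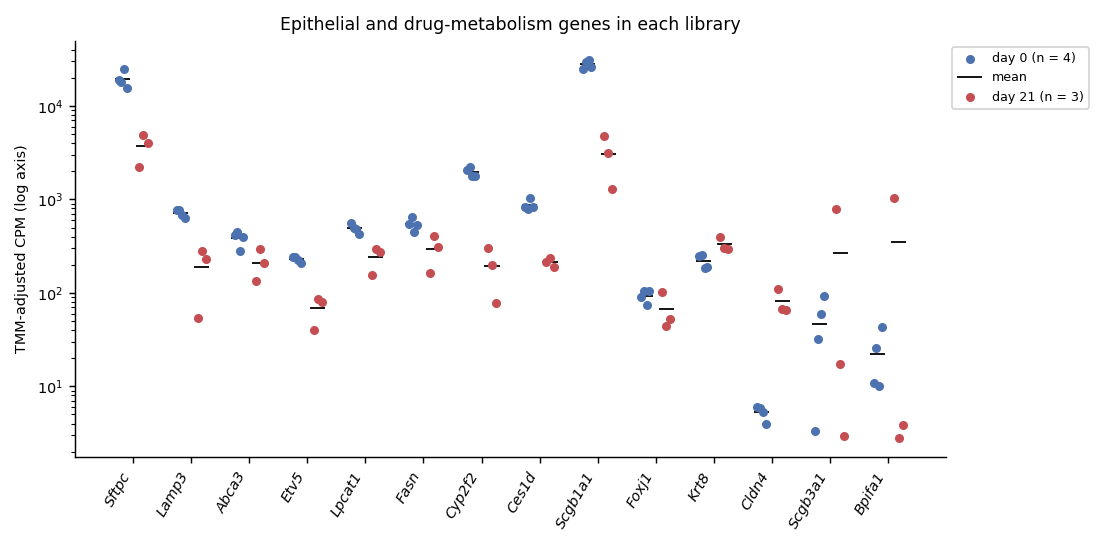
Points are TMM-adjusted CPM on a log axis for each library of day 0 (blue, n = 4) and day 21 (red, n = 3), with black lines at the group means. Lamp3, Etv5 and Cyp2f2 do not overlap between groups, whereas Scgb3a1 and Bpifa1 spread widely within day 21, with replicate 1 the highest.

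Enzymes of drug metabolism, many of them made by club and type 2 cells, were lower as a group. Of 12 tested, 11 were called lower and none higher (median -1.60), and 11 were called whichever library was left out. Aox3, an aldehyde oxidase, stood at 240.3, 259.7, 223 and 234 CPM at day 0 and 21, 19.3 and 12.2 CPM at day 21 (log2 fold change -3.77 ± 0.30, adjusted p = 2.02e-06). The cytochrome P450 Cyp4b1 was at 987, 807, 698 and 764 CPM at day 0 and 178, 320.3 and 164 CPM at day 21 (log2 fold change -1.88 ± 0.23, adjusted p = 4.27e-05). Cyp1a1 stood at 45.1, 49.8, 47.5 and 33.9 CPM at day 0 and 7.9, 7.74 and 4.23 CPM at day 21 (log2 fold change -2.73 ± 0.44, adjusted p = 0.000323). None of these 3 overlapped between groups. The flavin monooxygenases Fmo1 and Fmo2 were called lower (log2 fold changes -1.0 ± 0.20 and -0.82 ± 0.21).

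Endothelial markers were read by vessel type. Of 11 pan-endothelial genes, 1 was called higher, Ecscr (log2 fold change 0.64 ± 0.16, adjusted p = 0.00872), and none lower (median -0.27). Pecam1 was lower with a difference below the fold threshold (log2 fold change -0.53, adjusted p = 0.0177). For 3 of the 11 every day 21 library lay below every day 0 library and for 1 above, against 16.1% and 19.4% of all genes. The Ecscr call was lost without day 0 replicate 2 or day 21 replicate 3, and 3 members were called lower without day 21 replicate 2 and 1 without day 0 replicate 3. Of 7 aerocyte genes, which mark the capillary cells facing the air, 5 were called lower (median -1.19), and 3 were without day 21 replicate 1. The endothelin receptor Ednrb was at 102, 80.7, 80.7 and 103 CPM at day 0 and 39.9, 47.2 and 28.7 CPM at day 21 (log2 fold change -1.25 ± 0.18, adjusted p = 0.000155). Car4, a carbonic anhydrase that is also in the alveolar macrophage list, stood at 145, 115, 176 and 162 CPM at day 0 and 38.7, 80.4 and 70.3 CPM at day 21 (log2 fold change -1.24 ± 0.26, adjusted p = 0.00222). Both were lower in every day 21 library. Of 6 general capillary genes, only the chemokine Cxcl12 was called, higher at 146, 167, 253 and 273 CPM at day 0 and 586, 301 and 668 CPM at day 21 (log2 fold change 1.3 ± 0.27, adjusted p = 0.00191), with a list median of -0.17 and 1 lower call without day 0 replicate 3 or day 21 replicate 3.

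Markers of larger and lymphatic vessels were raised in part. Arterial genes gave 3 higher calls among 8 (median 0.21), including the connexin Gja5 at 41.5, 27.1, 43.1 and 51.4 CPM at day 0 and 108, 99.9 and 118 CPM at day 21 (log2 fold change 1.41 ± 0.18, adjusted p = 4.71e-05). Venous genes gave 5 among 11 (median 0.46). Neither list had a lower call, but the arterial list had 1 without day 21 replicate 1 and the venous list 1 without day 21 replicate 2. Col15a1, a collagen of systemic-type vessels, was at 11.1, 16.3, 5.9 and 9.75 CPM at day 0 and 128, 55 and 133 CPM at day 21 (log2 fold change 3.29 ± 0.37, adjusted p = 1.82e-05). Ackr1, the Duffy chemokine receptor of venules, stood at 0.647, 0.423, 0.19 and 0 CPM at day 0 and 7.41, 3.53 and 3.41 CPM at day 21 (log2 fold change 3.92 ± 0.62, adjusted p = 0.000287). The adhesion receptor Selp was at 4.59, 3.62, 2.47 and 4.9 CPM at day 0 and 15.3, 12 and 14 CPM at day 21 (log2 fold change 1.81 ± 0.32, adjusted p = 0.000639). None of these 4 genes overlapped between the groups. Of 6 lymphatic genes, 5 were called higher (median 1.43), and 5 were under each alternative run. Prox1 (chromosome 1, 190118035 to 190170714, GRCm38), the transcription factor that sets lymphatic identity, stood at 4.07, 5.68, 4.95 and 5.02 CPM at day 0 and 20.4, 14.2 and 21.6 CPM at day 21 (log2 fold change 1.92 ± 0.18, adjusted p = 4.83e-06). Reln was at 11.8, 15, 10.4 and 16.2 CPM at day 0 and 89.8, 56 and 42.3 CPM at day 21 (log2 fold change 2.23 ± 0.24, adjusted p = 1.28e-05). The chemokine Ccl21a stood at 81, 69.9, 77.4 and 84.1 CPM at day 0 and 169, 154 and 189 CPM at day 21 (log2 fold change 1.13 ± 0.22, adjusted p = 0.00131) and the growth factor receptor Flt4 rose (log2 fold change 1.05 ± 0.15, adjusted p = 0.000136). The groups did not overlap for Prox1, Reln or Ccl21a. The exception was Lyve1, which some macrophages also express, at 745, 747, 468 and 549.6 CPM at day 0 and 544, 955 and 296 CPM at day 21 (log2 fold change -0.07 ± 0.35, adjusted p = 0.904).

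Macrophage markers were raised for the scar-associated and interstitial types. Of 10 scar-associated genes, 8 were called higher and none lower (median 3.33), and 8 were under each alternative run. The lipid receptor Trem2 was at 3.75, 2.6, 5.52 and 5.52 CPM at day 0 and 93.4, 55.8 and 93.6 CPM at day 21 (log2 fold change 4.21 ± 0.30, adjusted p = 9.43e-07). The glycoprotein Gpnmb stood at 23.9, 18.7, 17.8 and 29.5 CPM at day 0 and 336, 154 and 548 CPM at day 21 (log2 fold change 3.94 ± 0.35, adjusted p = 4.25e-06). Osteopontin (Spp1) was at 92.5, 55.1, 47.2 and 47.3 CPM at day 0 and 3899.7, 1286 and 3346 CPM at day 21 (log2 fold change 5.55 ± 0.47, adjusted p = 3.13e-06), and the growth factor Pdgfc rose (log2 fold change 2.71 ± 0.42, adjusted p = 0.000233). The day 21 libraries lay above day 0 throughout for Trem2, Gpnmb and Spp1. Of 11 interstitial macrophage and monocyte genes, 6 were called higher (median 1.56). The complement chain C1qb stood at 30.3, 33.8, 26.6 and 29.8 CPM at day 0 and 382, 218 and 303 CPM at day 21 (log2 fold change 3.32 ± 0.30, adjusted p = 4.61e-06). It lay above day 0 in all 3 day 21 libraries.

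Alveolar macrophage genes moved both ways, with 4 higher and 5 lower calls among 14 (median -0.12), and 2 higher without day 21 replicate 3. Siglecf, their defining receptor in the mouse, stood at 18.2, 15.9, 14 and 16.6 CPM at day 0 and 3.46, 3.7 and 9.52 CPM at day 21 (log2 fold change -1.54 ± 0.33, adjusted p = 0.00254). The ribonuclease Ear1 was at 16.8, 16, 18.5 and 16.9 CPM at day 0 and 1.17, 1.31 and 2.94 CPM at day 21 (log2 fold change -3.23 ± 0.42, adjusted p = 5.98e-05). By contrast the mannose receptor Mrc1 stood at 100.5, 100.5, 87.1 and 112 CPM at day 0 and 627, 297 and 333 CPM at day 21 (log2 fold change 2.07 ± 0.39, adjusted p = 0.00118) and Atp6v0d2, a proton pump subunit, rose (log2 fold change 1.24 ± 0.16, adjusted p = 6.99e-05). Siglecf, Ear1 and Mrc1 did not overlap between the groups. Dendritic cell genes gave 1 higher and 2 lower calls among 10 (median -0.30; 1 lower without day 0 replicate 3 or 4 or day 21 replicate 1 or 2), with the actin-bundling gene Fscn1 higher (log2 fold change 2.32 ± 0.25, adjusted p = 1.27e-05) and Clec9a lower (log2 fold change -1.13 ± 0.29, adjusted p = 0.0088). Their lower calls were 3 without day 21 replicate 3, 0 with glmTreat and at most 4 under changes of scaling, filter, model or covariate. MHC class II genes gave 1 lower call among 9, H2-Ob (log2 fold change -2.27 ± 0.56, adjusted p = 0.00673), with a median of -0.19. None of 3 tested mast cell genes was called (median -0.01), and 1 was lower without day 0 replicate 4.

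Cytotoxic, NK cell and B cell markers were lower. All 10 cytotoxic and NK cell genes were called lower (median -2.43), with between 8 and 10 called when 1 library was left out. Gzma, a granzyme, was at 39.7, 17.5, 31.8 and 14.5 CPM at day 0 and 1.36, 1.2 and 3 CPM at day 21 (log2 fold change -3.8 ± 0.64, adjusted p = 0.000482). The NK receptor Ncr1 stood at 7.89, 3.81, 3.74 and 2.01 CPM at day 0 and 0.185, 0.285 and 0.999 CPM at day 21 (log2 fold change -3.13 ± 0.70, adjusted p = 0.00366). Perforin (Prf1) was at 12.7, 8.4, 7.04 and 4.29 CPM at day 0 and 0.679, 0.797 and 2.94 CPM at day 21 (log2 fold change -2.45 ± 0.61, adjusted p = 0.00707). All 3 were lower in every day 21 library. Of 8 B cell genes, 7 were called lower (median -2.01). Ms4a1, which encodes CD20, stood at 25.7, 16.5, 17.6 and 10.1 CPM at day 0 and 1.98, 2.56 and 5.76 CPM at day 21 (log2 fold change -2.34 ± 0.62, adjusted p = 0.0102). Cd79b, a chain of the B cell receptor, was at 31.9, 21, 29.9 and 15.1 CPM at day 0 and 5.19, 4.33 and 5.99 CPM at day 21 (log2 fold change -2.24 ± 0.45, adjusted p = 0.00164). Neither overlapped between the groups. Of 13 T cell genes, 1 was called higher, the co-stimulatory receptor Tnfrsf4 (log2 fold change 2.08 ± 0.40, adjusted p = 0.00134), and none lower (median -0.47), with 3 lower without day 21 replicate 3 and 2 higher without day 21 replicate 2. Cd3e stood at 5.56, 4.05, 5.96 and 3.79 CPM at day 0 and 2.96, 1.88 and 3.53 CPM at day 21 (log2 fold change -0.79 ± 0.35, adjusted p = 0.101), lower in each day 21 library but short of the threshold.

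Of 11 neutrophil genes, 5 were called lower and 1 higher (median -2.50). S100a8 was at 89.7, 119.7, 94.8 and 71.9 CPM at day 0 and 24, 11.7 and 14.2 CPM at day 21 (log2 fold change -2.5 ± 0.57, adjusted p = 0.00402). The receptor Csf3r stood at 169, 254, 172 and 72.8 CPM at day 0 and 38, 27.9 and 29.3 CPM at day 21 (log2 fold change -2.39 ± 0.39, adjusted p = 0.000386). Both were below day 0 in every day 21 library. Ltf was the higher call, at 33.6, 21.4, 8.5 and 25.7 CPM at day 0 and 717, 10.2 and 12.8 CPM at day 21 (log2 fold change 3.47 ± 1.08, adjusted p = 0.0248), and it turned to -0.99 with adjusted p = 0.305 without day 21 replicate 1, the library with the most large-airway RNA. The call was also lost without day 0 replicate 2, 3 or 4. All 5 red cell genes were lower too (median -2.64), among them Hba-a1 at 1187, 761, 248 and 525 CPM at day 0 and 92.4, 175 and 139 CPM at day 21 (log2 fold change -2.33 ± 0.49, adjusted p = 0.00247). Alas2, the erythroid heme synthesis enzyme, was at 124, 76.4, 9.13 and 47.5 CPM at day 0 and 7.29, 13 and 10.6 CPM at day 21 (log2 fold change -2.64 ± 0.61, adjusted p = 0.00429). Hba-a1 did not overlap between the groups, whereas Alas2 in day 0 replicate 3 lay within the day 21 range. Hba-a1, Ccl21a and Ear1 have near-identical copies, so their counts are uncertain. Platelet genes gave 1 higher and 1 lower call among 4 (median -0.33), with no higher call without day 21 replicate 1 or day 0 replicate 4 and 2 lower without day 21 replicate 2, and with Ppbp at 32.3, 28.9, 16.9 and 18.4 CPM at day 0 and 2.59, 5.41 and 4.52 CPM at day 21 (log2 fold change -2.52 ± 0.55, adjusted p = 0.00318). The red cell genes thus fell along with the cytotoxic and NK cell list, the B cell list and 5 of the 11 neutrophil genes. Their part in those results was not tested. Cardiac muscle genes gave no call among 6 tested (median 0.42, and -2.61 without day 21 replicate 1), and their summed level at day 21 was 641, 11.8 and 15.04 CPM.

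Plasma cell and immunoglobulin genes gave 5 higher calls and 1 lower among 13 (median 1.67), but 1 higher without day 21 replicate 1 (median 0.30) and 2 without day 0 replicate 1, 3 or 4. The lower call was lost without day 0 replicate 1 or 2 or day 21 replicate 1 or 2. Igha, the constant chain of IgA, stood at 46.4, 33, 9.96 and 3.07 CPM at day 0 and 1114, 142 and 672 CPM at day 21 (log2 fold change 4.8 ± 1.01, adjusted p = 0.00232), with day 21 replicate 2 the lowest of its group and above all of day 0. The joining chain gene Jchain was at 22.7, 46.8, 5.39 and 2.06 CPM at day 0 and 389, 63.7 and 237 CPM at day 21 (log2 fold change 3.58 ± 1.02, adjusted p = 0.0151), and its call was lost without day 21 replicate 1 (2.94, adjusted p = 0.0577).

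**Figure D4:**
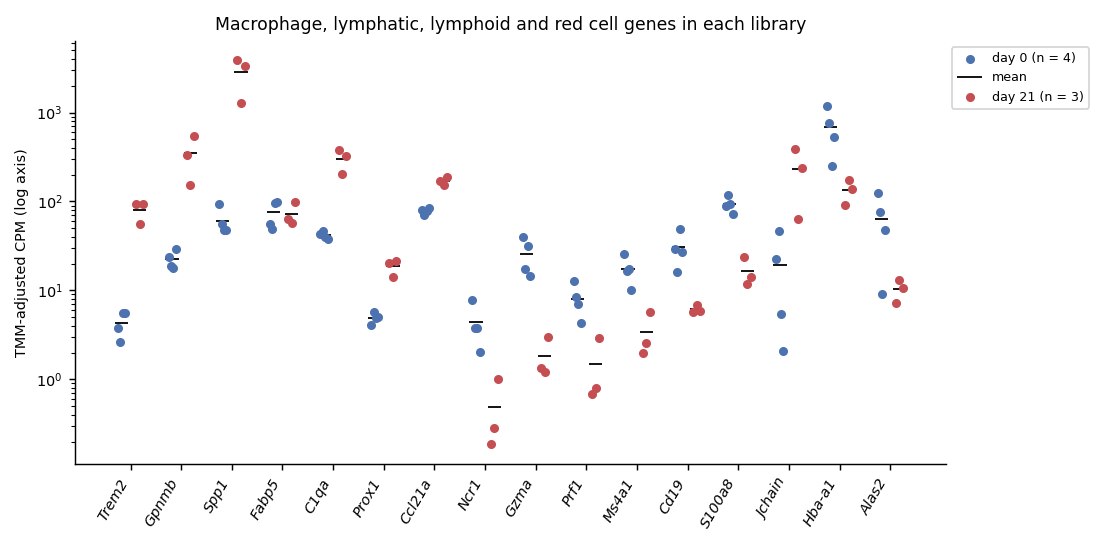
Points are TMM-adjusted CPM on a log axis for each library of day 0 (blue, n = 4) and day 21 (red, n = 3), with black lines at the group means. Trem2, Gpnmb, Spp1, C1qa, Prox1 and Ccl21a are higher at day 21, Gzma, Ncr1, Ms4a1 and the red cell genes are lower, and Fabp5 overlaps between groups.

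Cell division genes were still raised. Of 17 mitosis genes, 16 were called higher and none lower (median 1.75), and 12 were without day 21 replicate 3, the day 21 library with the highest list score. Cdk1, the kinase that drives entry into mitosis, stood at 2.52, 3.14, 2.47 and 3.07 CPM at day 0 and 16.4, 6.43 and 16.9 CPM at day 21 (log2 fold change 2.24 ± 0.28, adjusted p = 4.27e-05). The cyclin Ccnb1 was at 2.98, 2.6, 1.2 and 1 CPM at day 0 and 14.4, 4.67 and 12.8 CPM at day 21 (log2 fold change 2.45 ± 0.37, adjusted p = 0.000186). The proliferation marker Mki67 stood at 13.3, 21.2, 11 and 13.3 CPM at day 0 and 45.7, 28.3 and 73.6 CPM at day 21 (log2 fold change 1.74 ± 0.28, adjusted p = 0.0003). The topoisomerase Top2a was at 12.3, 16.7, 8.69 and 7.52 CPM at day 0 and 30.1, 20.5 and 57.5 CPM at day 21 (log2 fold change 1.67 ± 0.31, adjusted p = 0.000979). The groups did not overlap for these 4 genes, and replicate 2 was the lowest day 21 library for each. Bub1 was not called (log2 fold change 0.71 ± 0.32, adjusted p = 0.11). Of 15 DNA replication genes, 7 were called higher (median 0.80), but 3 higher and 1 lower without day 21 replicate 3 (median 0.36). The ribonucleotide reductase subunit Rrm2 rose (log2 fold change 1.49 ± 0.27, adjusted p = 0.000852) and the cyclin Ccne1 did too (log2 fold change 1.83 ± 0.28, adjusted p = 0.000216), while Pcna was not called (log2 fold change 0.27 ± 0.14, adjusted p = 0.146).

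Promoters of many mitosis genes share the same short elements. The 100 bases before the start are shown for 5 members that hold a CHR element and a CCAAT box there, so they do not stand for the whole list. Sequences are from RefSeq (GRCm38.p6), each 5′ to 3′ on the gene's strand. Capitals mark the CHR element, TTTGAA or its reverse complement TTCAAA, and the CCAAT box, CCAAT or ATTGG, which can share an end base.
Cdk1, chr10:69352913-69353012, minus strand: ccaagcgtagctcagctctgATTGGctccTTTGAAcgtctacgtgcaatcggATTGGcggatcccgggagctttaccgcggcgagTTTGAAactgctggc
Cdc20, chr4:118437344-118437443, minus strand: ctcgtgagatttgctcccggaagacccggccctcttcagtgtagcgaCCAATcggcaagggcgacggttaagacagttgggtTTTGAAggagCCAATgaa
Kif11, chr19:37376282-37376381, plus strand: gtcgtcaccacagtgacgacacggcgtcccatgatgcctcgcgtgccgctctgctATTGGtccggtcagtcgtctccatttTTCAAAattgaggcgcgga
Top2a, chr11:99024190-99024289, minus strand: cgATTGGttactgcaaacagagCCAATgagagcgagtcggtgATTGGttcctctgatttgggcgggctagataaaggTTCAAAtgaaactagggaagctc
Ube2c, chr2:164769829-164769928, plus strand: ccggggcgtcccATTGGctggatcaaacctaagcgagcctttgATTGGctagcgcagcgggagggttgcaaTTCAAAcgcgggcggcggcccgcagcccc
In the windows from 250 bases before to 50 after the start, the CHR letters on either strand were found in 10 of 14 matched mitosis genes (71.4%), against 20.2% of 27025 genes, and the CCAAT letters in 12 of 14 (85.7%), against 41.1%. Among the other members, Ccnb1 and Bub1 had no CHR letters in these windows, and those of Bub1b, Cenpf and Plk1 lay only after the start. A match is a description of the letters, not a measured binding site. The log2 fold changes of Cdc20, Kif11 and Ube2c were 1.3 ± 0.19, 1.26 ± 0.31 and 1.44 ± 0.35, and the calls of Kif11 and Ube2c were lost without day 21 replicate 3.

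Targets of p53 and senescence genes, which respond to DNA damage, gave 9 higher and no lower calls among 17 (median 0.91), and 9 or 10 when 1 library was left out. The cell cycle inhibitor Cdkn1a stood at 129, 153, 71.7 and 112 CPM at day 0 and 292, 349 and 276 CPM at day 21 (log2 fold change 1.39 ± 0.22, adjusted p = 0.000261). Cdkn2a, a locus switched on in senescent cells, was at 0.453, 0.302, 0.127 and 0.836 CPM at day 0 and 4.75, 1.88 and 4.76 CPM at day 21 (log2 fold change 3.1 ± 0.52, adjusted p = 0.000473). The stress cytokine Gdf15 stood at 1.81, 1.45, 1.59 and 1.45 CPM at day 0 and 7.47, 8.99 and 12.2 CPM at day 21 (log2 fold change 2.6 ± 0.24, adjusted p = 4.45e-06). The groups did not overlap for these 3 genes. Eda2r rose (log2 fold change 1.88 ± 0.24, adjusted p = 5.63e-05) and so did Phlda3 (log2 fold change 1.41 ± 0.15, adjusted p = 1.27e-05). The p53 inhibitor Mdm2 was at 86.9, 75.2, 92.2 and 94.4 CPM at day 0 and 127, 127 and 121 CPM at day 21, with no overlap and a difference below the fold threshold (log2 fold change 0.52 ± 0.11, adjusted p = 0.00174).

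Chemokine genes gave 14 higher calls and 1 lower among 25 (median 1.20). The monocyte attractant Ccl2 stood at 0.453, 0.846, 0.381 and 0.78 CPM at day 0 and 31.3, 8.02 and 16.9 CPM at day 21 (log2 fold change 4.9 ± 0.59, adjusted p = 3.59e-05). The related Ccl7 was at 0.517, 0.785, 0.19 and 0.724 CPM at day 0 and 13.7, 4.67 and 12.4 CPM at day 21 (log2 fold change 4.18 ± 0.52, adjusted p = 4.5e-05). Both were above day 0 in every library. Ccl8 rose (log2 fold change 3.69 ± 0.52, adjusted p = 0.000122) and so did Ccl9 (log2 fold change 2.57 ± 0.27, adjusted p = 1.24e-05). Cxcl10 rose (log2 fold change 2.0 ± 0.37, adjusted p = 0.00102), although of 16 interferon-stimulated genes only Mx1 was called (log2 fold change 1.21 ± 0.41, adjusted p = 0.0372; median of the list 0.13), and that call was lost on leaving out any library but day 0 replicate 3. Other members passed when a library was left out, 2 higher without day 21 replicate 1 (median 0.29) and 1 lower without day 0 replicate 2 or day 21 replicate 3. The lower chemokine was Ccl5, which is also in the cytotoxic list (log2 fold change -1.49 ± 0.40, adjusted p = 0.0107), and 2 chemokines were lower without day 0 replicate 2 or day 21 replicate 2. Complement genes gave 2 calls in each direction among 12 (median 0.21), C3ar1 higher (log2 fold change 3.47 ± 0.42, adjusted p = 3.59e-05) and C6 and C7 lower (log2 fold change -1.67 ± 0.24, adjusted p = 0.000129 and log2 fold change -1.51 ± 0.38, adjusted p = 0.00689). The other higher call, C4b (log2 fold change 0.7 ± 0.23, adjusted p = 0.0282), was lost without day 0 replicate 3 or 4 and without day 21 replicate 2 or 3. Of 13 coagulation and fibrinolysis genes, 8 were called higher and 1 lower (median 0.86). Plau, the urokinase gene, stood at 9.31, 6.04, 3.49 and 6.91 CPM at day 0 and 46.4, 22.4 and 50 CPM at day 21 (log2 fold change 2.62 ± 0.35, adjusted p = 6.96e-05), and Serpine2 rose (log2 fold change 2.11 ± 0.30, adjusted p = 0.000116). Thbd, the anticoagulant thrombomodulin, fell from between 864 and 1176 CPM to 322, 525 and 531 CPM (log2 fold change -1.19 ± 0.27, adjusted p = 0.00349).

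Clock genes gave 7 lower calls and 1 higher among 17 (median -0.64), with between 5 and 9 lower when 1 library was left out. Day 0 replicates 1 and 2 differed from replicates 3 and 4 in this list, with Per1 at 143, 131, 392 and 352 CPM. The same split was present in the share of counts from mitochondrial genes, at 2.28%, 2.31%, 4.22% and 4.04%, and in the mesothelial list score, at 0.48, 0.42, -0.52 and -0.39. The labels gave no time of collection. The output gene Dbp was at 53.4, 41.3, 141 and 95.7 CPM at day 0 and 19, 18.4 and 16.9 CPM at day 21 (log2 fold change -2.19 ± 0.58, adjusted p = 0.0102). Nr1d1, the repressor REV-ERB alpha, stood at 179.6, 223, 132 and 147 CPM at day 0 and 65.2, 50.8 and 32.4 CPM at day 21 (log2 fold change -1.78 ± 0.33, adjusted p = 0.00104), and Cry2 fell (log2 fold change -1.16 ± 0.21, adjusted p = 0.000692). For Dbp and Nr1d1 each day 21 library lay below each day 0 library. Bhlhe40 was the higher call (log2 fold change 1.14 ± 0.20, adjusted p = 0.000614). The E-box letters CACGTG were in the promoter windows of 5 of 15 matched clock genes (33.3%), against 8.09% of 27025 genes.

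Metabolic lists had no common direction. Serine, glycine and proline synthesis gave 4 higher calls among 8 (median 0.87), in the enzymes Psat1 (log2 fold change 1.74 ± 0.20, adjusted p = 2.17e-05), Pycr1 (log2 fold change 1.48 ± 0.24, adjusted p = 0.000382), Aldh18a1 (log2 fold change 1.36 ± 0.22, adjusted p = 0.000304) and Mthfd2 (log2 fold change 1.61 ± 0.24, adjusted p = 0.000178). Glycolysis gave 5 among 13 (median 0.39), 2 without day 21 replicate 1 and 3 without day 21 replicate 3, and 1 was lower without day 0 replicate 4 or day 21 replicate 1, with Eno1 at 151, 149.7, 131 and 126 CPM at day 0 and 387, 228 and 311 CPM at day 21 (log2 fold change 1.15 ± 0.24, adjusted p = 0.00222). NRF2 antioxidant genes gave 5 among 9 (median 0.64), 3 without day 21 replicate 1, and 1 was lower without day 21 replicate 2. The heme oxygenase Hmox1 was at 48, 48.9, 38.3 and 40.5 CPM at day 0 and 340.4, 227 and 146 CPM at day 21 (log2 fold change 2.44 ± 0.52, adjusted p = 0.00258) and the cystine transporter Slc7a11 rose (log2 fold change 2.51 ± 0.25, adjusted p = 8.25e-06). Lipogenesis gave 4 lower calls among 9 (median -0.34), 2 without day 21 replicate 1, with Dgat2, which makes triglyceride, down (log2 fold change -1.36 ± 0.26, adjusted p = 0.00138) and Fasn at 551, 653, 448 and 534 CPM at day 0 and 162, 404 and 309 CPM at day 21 (log2 fold change -0.91 ± 0.30, adjusted p = 0.0316). The Fasn call was lost without day 0 replicate 2, day 21 replicate 1 or day 21 replicate 3. Fatty acid oxidation gave 2 lower calls among 12 (median -0.30), among them Acaa1b (log2 fold change -3.96 ± 0.42, adjusted p = 1.22e-05). Cholesterol synthesis gave 2 higher calls among 12 (median 0.36), Cyp51 (log2 fold change 0.86 ± 0.18, adjusted p = 0.00243) and Mvd (log2 fold change 0.73 ± 0.13, adjusted p = 0.000606). The unfolded protein response gave 2 higher and 1 lower among 12 (median 0.16), Trib3 and Sdf2l1 higher (log2 fold change 0.87 ± 0.24, adjusted p = 0.0118 and log2 fold change 0.98 ± 0.34, adjusted p = 0.0391) and Herpud1 lower (log2 fold change -0.85 ± 0.19, adjusted p = 0.0031). The Trib3 call was lost without day 21 replicate 1 (0.74, adjusted p = 0.0603), and the Sdf2l1 call without day 0 replicate 1, 3 or 4 or day 21 replicate 3. Of 9 imprinted growth genes, 6 were called higher and 1 lower (median 0.86), and no lower call was left without day 0 replicate 3 or day 21 replicate 1 or 3. With glmTreat the higher calls were 2 for this list, 1 for glycolysis and 0 for cholesterol synthesis and the unfolded protein response. They were 3 for NRF2 antioxidant genes and 4 for serine, glycine and proline synthesis. Mest stood at 7.76, 6.22, 8.56 and 8.47 CPM at day 0 and 30.4, 41.7 and 61.4 CPM at day 21 (log2 fold change 2.52 ± 0.22, adjusted p = 3.13e-06). Peg3 was at 18, 24.5, 31.5 and 34.8 CPM at day 0 and 263, 134 and 50.1 CPM at day 21 (log2 fold change 2.45 ± 0.43, adjusted p = 0.000638). Neither overlapped between the groups, and replicate 3 was the lowest of day 21 for Peg3. Among 7 genes listed for the methylation of histone H3 lysine 79, some of which act on it indirectly through H2B ubiquitylation, Dot1l was the call, at 44.2, 47.4, 79.3 and 75.1 CPM at day 0 and 97.1, 98.2 and 91.4 CPM at day 21 (log2 fold change 0.64 ± 0.18, adjusted p = 0.0139; median of the list -0.08), and the call was lost in the fit of the 2 groups alone, with glmTreat, and on leaving out day 0 replicate 1 or 2 or day 21 replicate 2.

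Day 21 was also compared with the earlier days. Against day 7, 1665 genes were called (9.54%), 907 higher (5.20%) and 758 lower (4.34%). The count was 176 with glmTreat and 942 with the log2 mitochondrial share as a covariate, 711 of which were among the 1665. List counts against day 7 were not run under these alternatives. Without day 21 replicate 1 the count was 966 and the share of calls that were higher went from 54.5% to 39.9%. All 13 type 2 genes were called lower against day 7 as well (median -1.49), and 5 of 6 lymphatic genes higher (median 1.49). Gpr37 stood at 0.113, 0.167, 0.0549 and 0.535 CPM at day 7 (log2 fold change 6.41 ± 1.08, adjusted p = 0.00306) and Grem1 at 2.38, 1, 7.13 and 3.33 CPM (log2 fold change 4.48 ± 0.86, adjusted p = 0.00574). Kcnt1, a sodium-activated potassium channel, stood at 0.17, 1.78, 0.439 and 0.891 CPM at day 7 and 13.7, 21.6 and 7.05 CPM at day 21 (log2 fold change 4.09 ± 0.56, adjusted p = 0.00109). Krt79 stood at 11, 4.07, 13 and 8.73 CPM at day 7 and 0.123, 0.683 and 0.47 CPM at day 21 (log2 fold change -4.39 ± 0.59, adjusted p = 0.000778). Mitosis genes, by contrast, gave no higher call and 1 lower against day 7 (median -0.58). Against day 14, edgeR called 0 genes, with 1714 at an unadjusted p under 0.05, while DESeq2 called 106 and limma voom 0. Against day 0, 16.1% of all genes were called at day 7 (8.78% higher and 7.36% lower) and 23.1% at day 14 (2089 genes or 12% higher, 11.2% lower). The comparisons with day 0 at different days share the day 0 libraries, so their values are set side by side only: the median log2 fold change from day 0 was -0.01 at day 7, -0.80 at day 14 and -1.76 at day 21 for type 2 genes, and -0.06, 0.55 and 1.43 for lymphatic genes. Of the 13 type 2 genes 0, 6 and 13 were called lower, and of the 6 lymphatic genes 0, 3 and 5 were called higher. For the activated fibroblast matrix the median was 1.58, 3.01 and 3.37, and for mitosis 2.29, 2.61 and 1.75.

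**Figure D5:**
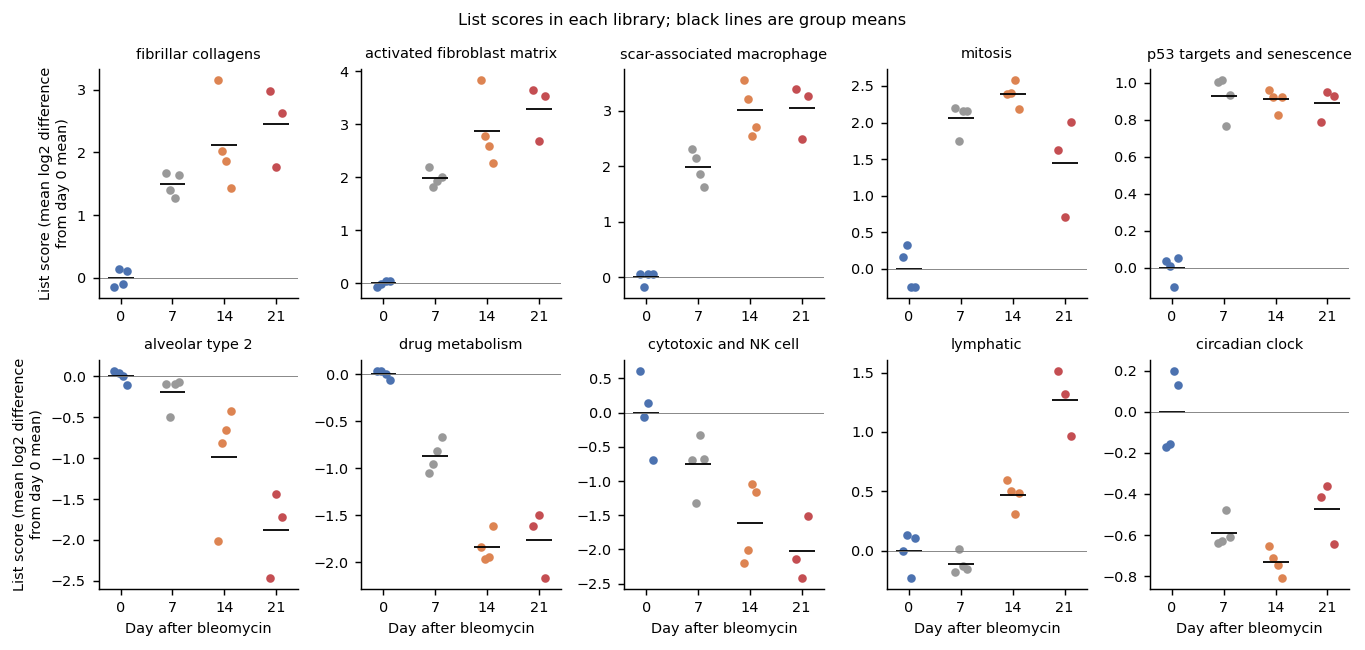
Points are the list score of each library (mean over tested members of log2(CPM + 0.5) minus the day 0 mean) by day after bleomycin, with black lines at the group means. Type 2 scores lie between -2.47 and -1.44 at day 21 against -0.50 to -0.08 at day 7, and lymphatic scores between 0.96 and 1.52 against -0.18 to 0.01. At day 14 type 2 scores lie between -2.02 and -0.43, the lowest of them inside the day 21 range, and lymphatic scores between 0.31 and 0.59.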

How the data were processed

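Per the labels and the study's methods, polyadenylated RNA of whole lungs was made into libraries with a kit that does not mark strand. The authors aligned trimmed paired-end reads to mm10 (GRCm38) with HISAT2 2.1.0, left out multiply aligned reads, and deposited raw counts per gene made with HTSeq 0.6.0; their own comparisons used DESeq2 1.40.2. Which annotation release and which strand setting HTSeq was run with is not given in the sources used here, so counts of genes whose exons overlap another gene are uncertain. The series text gave fewer replicates per day than the sample titles, which were followed. GENCODE M21 named 33267 of the 33340 gene identifiers.

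All 15 libraries were fitted together in edgeR 4.0.16 (R 4.3.3; TMM factors, filterByExpr on the day group, quasi-likelihood test), and p-values were adjusted over all 17457 genes tested (Benjamini-Hochberg). Levels (CPM) are counts scaled by the library total times its TMM factor. A library total between 15652008 and 18020661 counts makes 3 counts, the floor used for genes at 0, about 0.183 CPM. The steps were tested on simulated data first. Alternatives were DESeq2 1.42.0, limma 3.58.1 voom, RLE and total-count scaling, a mean of at least 1 CPM or no filter, the groups alone, a replicate block, no fold threshold, glmTreat, the log2 mitochondrial share as a covariate, and each library left out.

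The 60 gene lists and their members were chosen with earlier results of these data known. Genes named were the 12 largest rises and 12 largest falls against day 0 and the 5 of each against day 7 (mean of at least 5 CPM, groups not overlapping, no predicted or antigen receptor genes), the first 3 genes of each list, up to 5 further called members with the largest change, and Dot1l. The text prints part of these. Outside this rule, and chosen after their values were seen, were Atp6v0d2, Bpifa1, Bub1, Ccl5, Ccl9, Cdc20, Cnn1, Col11a2, Col4a6, Cxcl10, Etv5, Fabp5, Fmo1, Fmo2, Kif11, Limch1, Ltbp4, P4ha1, Per1, Scgb3a1, Tgfb3, Tgfbr3, Ube2c and Wnt2. Promoter windows came from the RefSeq table of GRCm38.p6. Some genes are not reported here.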

Additional observations from a re-analysis of the deposited data

Results flagged for a closer look

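Among 376 groups of 4 day 0 values examined, for 316 genes and the scores of 60 lists, 13 (3.46%) had 1 library far from the other 3 by Dixon's criterion, which chance alone meets in about 5% of groups. All were day 0 groups, since day 21 had 3 libraries. Day 0 replicate 3 was apart for Fn1, at 290.3 CPM against 449 to 454 CPM, for Ces1d, at 1027 CPM against 798 to 837 CPM, for Tnfrsf4, at 2.28 CPM against 0.841 to 1.03 CPM, for Eda2r, at 2.92 CPM against 4.59 to 4.68 CPM, and for Mx1, at 5.33 CPM against 3.82 to 4.01 CPM. Day 0 replicate 1 was apart for Tcf21, at 79.6 CPM against 57.7 to 58.8 CPM, for Ager, at 2989 CPM against 1992 to 2123 CPM, for Hbegf, at 48.8 CPM against 37.7 to 39.2 CPM, and for Ccl8, at 2.00 CPM against 1.08 to 1.17 CPM. Day 0 replicate 2 was apart for Cst8, at 2.90 CPM against 5.58 to 5.91 CPM, for Acta2, at 129 CPM against 100.6 to 102.7 CPM, and for the scar-associated macrophage score, at -0.18 against 0.06 in each of the others. Day 0 replicate 4 was apart for Hhip, at 60.6 CPM against 47.7 to 49.1 CPM.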

How the results depend on the processing

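Against day 0, the 3924 calls at day 21 became 1754 with glmTreat and lay between 3349 and 3822 when 1 library was left out. Against day 7, the 1665 calls became 176 with glmTreat and 942 once the mitochondrial share was a covariate, and 711 of the 942 were shared with the main fit. Mitochondrial genes held 2.15%, 2.03%, 2.03% and 2.09% of counts at day 7 and 4.01%, 3.18% and 2.66% at day 21, with no overlap between these groups. The calls against day 7 lay between 966 and 1822 when 1 library was left out, where leaving out day 21 replicate 1 gave 966, and day 7 replicates 1, 3 and 4 gave 986, 1032 and 1096. Against day 14, the count of 0 became 106 with DESeq2 and 37 with no filter, and lay between 0 and 127 when 1 library was left out, where leaving out day 14 replicate 1 gave 127, day 21 replicate 3 gave 24 and day 21 replicate 2 gave 3. The cause of these differences was not tested. The replicate block gave 3752, 1651 and 0 calls. Same-numbered libraries of days 21 and 0 did not deviate together (r across genes -0.24, -0.08 and -0.14), and against days 7 (-0.02, 0.22 and 0.17) and 14 (0.40, 0.01 and 0.20) not every pair did, so the numbers were not taken as pairs. The same-numbered library was the closest match for day 21 replicate 2 at day 7 and replicates 1 and 3 at day 14. Of 294 called genes examined singly, 226 kept their call under each alternative run and 68 lost it under at least 1. The log2 fold change of Ltf ranged from -0.99 without day 21 replicate 1 to 3.98 without day 21 replicate 2. That of Lyve1 ranged from -0.62 to 0.22 when 1 library was left out and was 0.0080 beside the mitochondrial covariate. The main limits are 3 libraries at day 21, of which replicate 1 held large-airway and cardiac RNA, and the treatment label of day 0 replicate 4.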
